A study of Dicentrarchus labrax with 35 samples.

Results

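A set of 165 target sequences was studied in gonads of the European sea bass (Dicentrarchus labrax). Their levels were lower at time 2 (T2), in testes of groups FF, SF and SS, than at time 1 (T1). They were high at T2 in 3 of the 5 testes of group FS. The 165 were chosen by these same measurements, from the matrix of log2 levels that the authors deposited. A is the mean of the 15 gonads of T1, B the mean of the 15 FF, SF and SS testes of T2, and C the mean of the testes FS1, FS2 and FS4. FS1, FS2 and FS4 had been told apart from FS3 and FS5 by a measured outcome. A probe was kept when B minus A was -0.5 or lower and C minus B was 1 or higher on the log2 scale, and the probe with the largest C minus B stood for its target sequence. Of 24200 sea bass probes, 354 met both thresholds, and they belonged to 165 of the 11705 target sequences (1.41%). Whether different target sequences come from the same transcript was not tested.

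Each of the 35 fish gave 1 gonad and 1 single-dye array. At T2, 332 days post fertilization in the sample labels, there were 5 males in each of 4 groups. Before T1 all fish were fed without restriction. From T1 on, FS were the large, fast-growing fish of the early period whose food was restricted, FF the fast-growing fish given abundant food, SF the small, slow-growing fish given abundant food, and SS the slow-growing fish whose food was restricted. At T1, 133 days post fertilization, the groups were F (7 fish) and S (8 fish), the fast- and slow-growing extremes of 1 population by body length, before any change of diet. All fish came from the same hatchery eggs and shared the rearing temperatures. From T1 onwards each T2 group lived in a tank of its own, so tank and diet cannot be told apart. The T1 gonads were not yet sexually differentiated and the T2 gonads were testes without spermatozoa, so age, differentiation and sex changed together between T1 and T2. Scan day and slide also changed largely with age. All T2 arrays but FF2 were scanned on the first day, and all T1 arrays but S5 to S8 on the second. Only the slide of S2, S3, S4 and FF2 held both ages. The part of scan day or slide in B minus A was not tested.

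The gonad of a young sea bass is a primordium of germ cells and somatic supporting cells in which neither testis nor ovary can be seen. During male differentiation the supporting cells become Sertoli cells, steroid-producing Leydig cells appear between the tubules, and the germ cells start to multiply as spermatogonia. In whole gonads a transcript can fall with age because its cells become a smaller share of the tissue or because each cell holds less of it, and fewer cells of a type and less RNA per cell cannot be told apart. In the tables used here the probes carry only identifiers of expressed sequences, and no annotation of the array was used, so neither the role of a member nor the labelled tissue, by its markers, could be checked, and the members are described by their levels.

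The values below are log2 levels from the scanner output of each array, with background correction and quantile normalization, unless the matrix is named. All 165 members were well above background on FS1, FS2 and FS4, 127 on all 15 FF, SF and SS arrays, and 124 on all 15 T1 arrays. One member was not well above background on any FF, SF or SS array, and 3 members lacked a value on an array because their only spot there was marked as faulty by the scanner software.

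The members were bright probes in the 3 FS testes and at T1. Their median level was 11.16 in FS1, FS2 and FS4, 9.09 in the 15 FF, SF and SS testes, and 10.30 in the 15 T1 gonads. Over all probes the same medians were 8.43, 8.50 and 8.49. C minus B of the members had a median of 1.55, with quartiles of 1.26 and 2.31 and a highest value of 8.06. B minus A had a median of -0.90, with quartiles of -1.43 and -0.67 and a lowest value of -5.12. These differences chose the members and carry no test. With the processed signal the median C minus B was 2.44, but the median of all probes then stood at -0.41 and the members at 2.85 relative to it. With T1 and T2 normalized separately the median B minus A was -0.0057, but the median of all probes then stood at 0.66 and the members at -0.67 relative to it. In the deposited matrix the last member inside the limits had a C minus B of 1.003 and the first probe outside 0.995, and for B minus A the last member lay exactly on the limit of -0.5 and the first probe outside had -0.494.

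**Figure D1:**
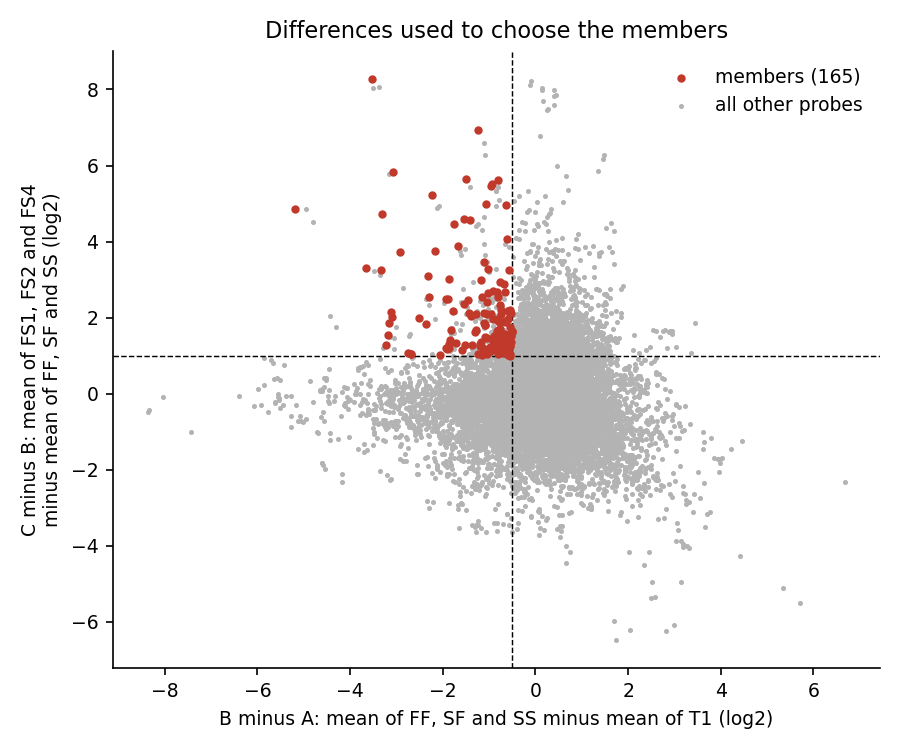
Differences in the deposited matrix for each of the 24200 sea bass probes. The horizontal axis is B minus A and the vertical axis C minus B, both in log2, with the thresholds as dashed lines. Red points are the 165 members, in the upper left, and grey points inside the limits are other probes of the same targets.

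One member owed its place to a single faulty reading. It had 1 spot, which gave 14.22 on FS4 in the matrix, against 7.83 on FS1, 7.76 on FS2 and a mean of 7.96 in the 15 FF, SF and SS testes. The scanner software had marked the FS4 spot, and without it C minus B of that member was -0.17. From the scanner output 162 of the 165 member probes met both limits.

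The members differed more in how far they rose in the 3 FS testes than in which of these testes was highest. C minus B was at least 4 in 16 members, between 2 and 4 in 41, and under 2 in 108. Relative to B, the median of the members was 1.4998 in FS1, 1.69 in FS2 and 1.54 in FS4. FS2 was the highest of the 3 for 76 members, FS4 for 54 and FS1 for 35. Within a member the SD over these 3 testes had a median of 0.22, against 0.15 over all probes. In 154 members (93.3%) all 3 testes lay above each of the 15 FF, SF and SS testes, as they did for 16.5% of all probes. The rule used this contrast, so nothing is read from the count.

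FS3 and FS5 did not enter the rule, but they had been set apart from FS1, FS2 and FS4 by a measured outcome. In the paper's heatmaps FS3 and FS5 fell with the FF or the SS testes. The members were at the level of the other T2 groups in both. This follows in large part from the split, and nothing is read from it. The median of the members relative to B was 0.00 in FS3 and 0.09 in FS5. FS3 was within the range of the 15 FF, SF and SS testes for 155 members, above it for 6 (3.64%, against 4.31% of all probes) and below it for 4 (2.42%, against 3.35%). FS5 was within that range for 149 members, above it for 14 (8.48%, against 5.19% of all probes) and below it for 2 (1.21%, against 4.57%). FS5 was at least 0.5 above B for 23 members (13.9%, against 5.72% of all probes), and FS3 for 3 (1.82%, against 3.34%). Only 2 members passed this mark in both. FS5 lay above B for 115 members (69.7%), against 47.7% of all probes, while FS3 did so for 85 (51.5%), against 51.2% of all probes. As a share of C minus B, the excess over B had a median of 5.15% in FS5 and 0.19% in FS3. Both limits of the rule favoured a low B, which can put arrays outside B above it. Nothing is read from the members in which FS5 lay above B. FS3 and FS5 are single testes, so no test was made. FS3 was hybridised on the same slide as FS1, FS2 and FS4, and FS5 on a slide with 3 SF testes.

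**Figure D2:**
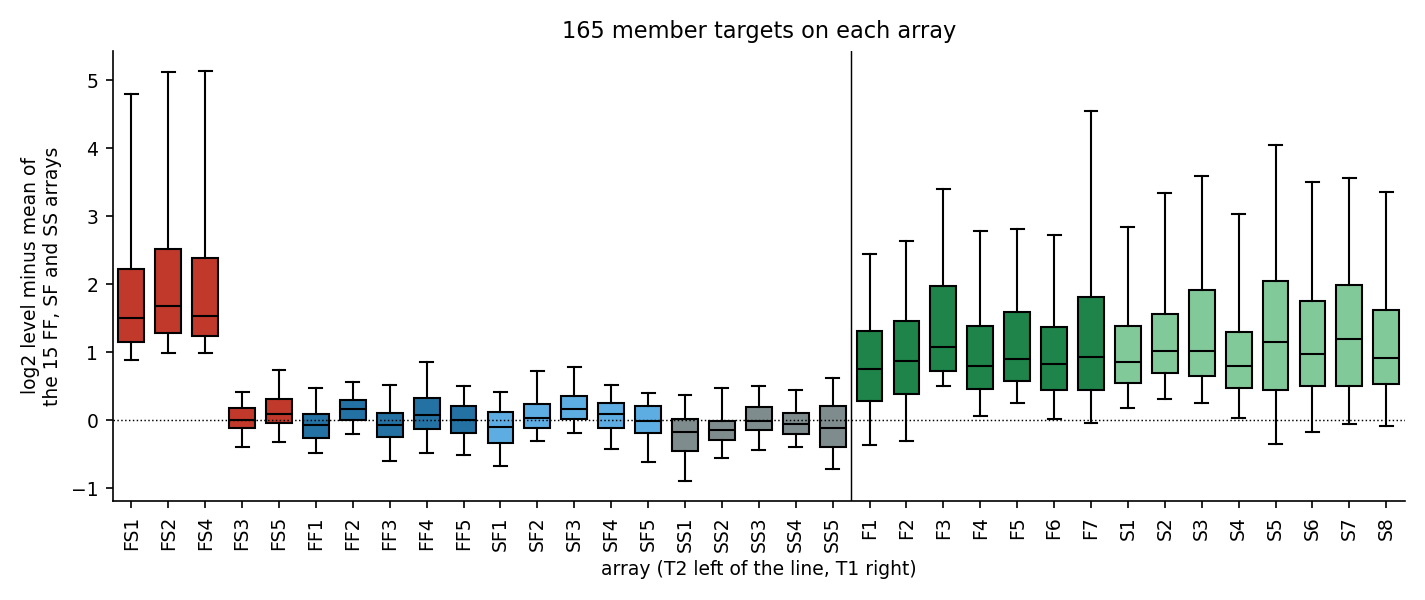
Levels of the 165 members on each of the 35 arrays, as log2 level minus the mean of the 15 FF, SF and SS arrays. Boxes span the quartiles, the line is the median and whiskers reach the 5th and 95th percentiles. The medians of FS1, FS2 and FS4 lie between 1.4998 and 1.69, those of FS3 and FS5 at 0.00 and 0.09, those of FF, SF and SS between -0.17 and 0.17, and those of T1 between 0.75 and 1.19.

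In the FF, SF and SS testes the members were at nearly the same level. The medians of the members relative to B spanned -0.08 to 0.16 on the FF arrays, -0.10 to 0.17 on the SF arrays and -0.17 to -0.01 on the SS arrays. At T1 they spanned 0.75 to 1.07 on the F arrays and 0.80 to 1.19 on the S arrays, so every T1 median lay above every T2 median other than those of FS1, FS2 and FS4. For single members the ages overlapped far more. All 15 T1 gonads lay above all 15 FF, SF and SS testes in 29 members (17.6%), as they did for 3.21% of all probes, a contrast that the rule also used.

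The rule set C against B and B against A, and C minus A follows from both. C was above A in 138 members and below it in 27, with a median C minus A of 0.68, against -0.04 over all probes. C exceeded A by at least 1 in 54 members and by at least 2 in 20, lay within 0.5 of A in 50, and was lower than A by at least 1 in 8. In 47 members (28.5%) FS1, FS2 and FS4 were all above each of the 15 T1 gonads, as for 20.7% of all probes. In 96 members C lay inside the range of the T1 gonads, and in 4 it was below all of them. The position of C differed with the size of the fall with age. In the 22 members with B minus A of -2 or lower, the median of C minus A was -0.46 and C was above A in 8. In the 50 members with B minus A between -2 and -1 this median was 0.57 with C above A in 38, and in the 93 with a smaller fall it was 0.78 with C above A in 92. Where the fall is smaller than 1, a C minus B of at least 1 by itself puts C above A, so the count of 138 and the order of the bands follow in large part from the limits, and nothing is read from them.

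**Figure D3:**
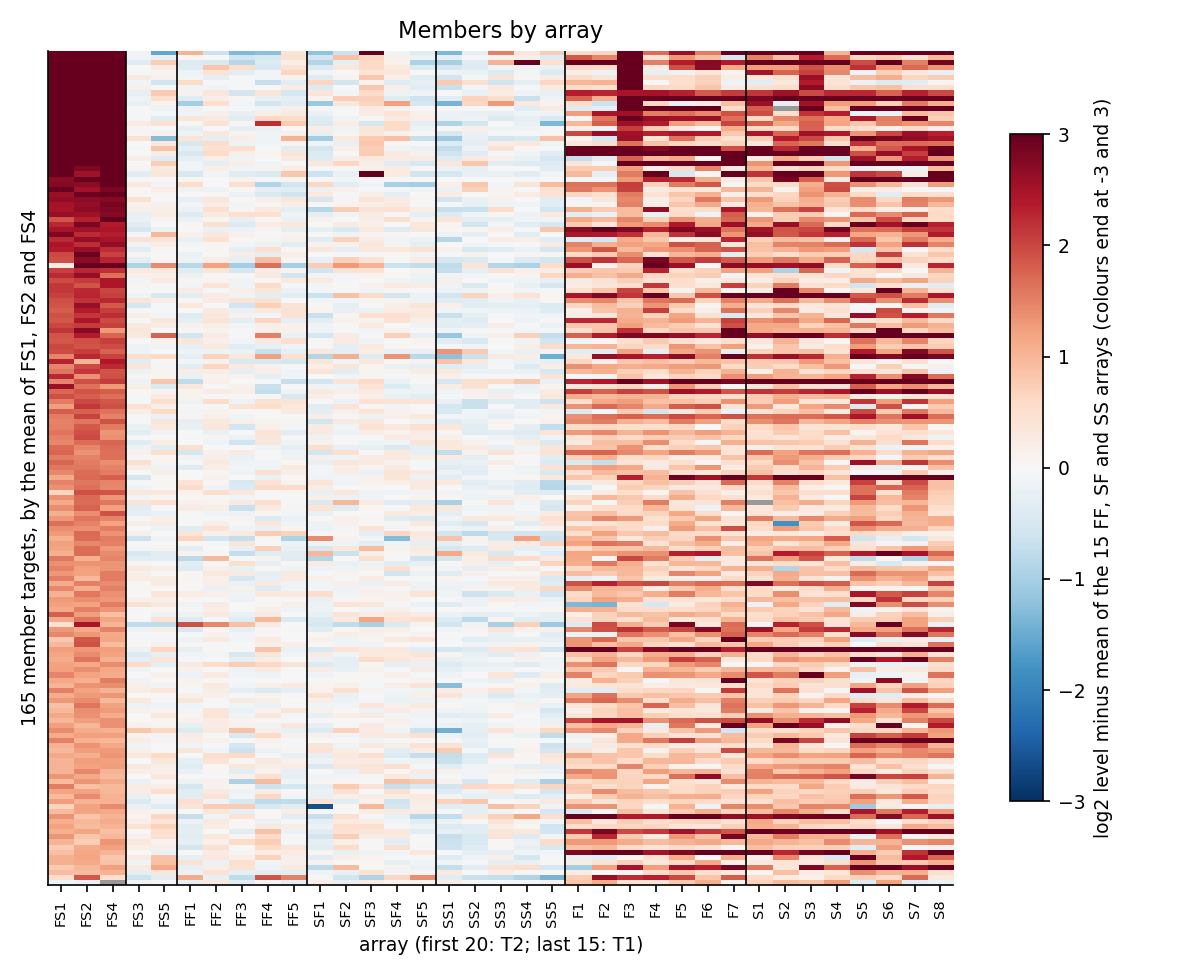
Each of the 165 members (1 line each, sorted by the mean of FS1, FS2 and FS4) on the 35 arrays, coloured by log2 level minus the mean of the 15 FF, SF and SS arrays, from blue (-3 or lower) to red (3 or higher). FS1, FS2 and FS4 are red in nearly all lines, an exception being the member with the faulty FS4 spot, the other T2 arrays are mostly pale, and the T1 arrays differ from one another, with F3 dark in the uppermost lines.

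The members with the largest rise in the 3 FS testes are represented by the pair with the largest C minus B. CUST_18906_PI416070213, whose target is the sequence read cDN32P0003H08.F.ab1, had 17.46, 17.51 and 17.42 in FS1, FS2 and FS4, against 9.31 in FS3 and 7.83 in FS5. The other T2 testes had 10.44, 8.76, 8.08, 8.15 and 9.80 in FF1 to FF5, 8.19, 8.77, 12.51, 9.32 and 9.04 in SF1 to SF5, and 8.05, 9.13, 10.90, 9.74 and 10.16 in SS1 to SS5. At T1 it ranged in F from 9.94 to 16.15, with a median of 11.08, and in S from 10.43 to 15.50, with a median of 13.55. The 3 FS testes thus lay above every other gonad and hardly differed from each other, while the T1 gonads spread over most of the range between them and the lowest testes. C minus B was 8.06, a 267-fold difference of the means, and B minus A was -3.46. FS3 and FS5, of the same group, were among the low testes.

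CUST_4691_PI416070213, for the contig SeabassC-CL2969Contig1, had 16.75, 17.29 and 17.31 in FS1, FS2 and FS4, against 10.18 in FS3 and 10.05 in FS5. It had 9.75 to 10.76 in FF, with a median of 10.28, 9.73 to 11.17 in SF, with a median of 10.44, and 9.90 to 10.49 in SS, with a median of 10.27. At T1 it had 9.76 to 14.05 in F, with a median of 11.60, and 10.75 to 12.67 in S, with a median of 11.23. Here the T1 gonads overlapped the FF, SF and SS testes, and no gonad outside FS1, FS2 and FS4 was above 14.05. C minus B was 6.82, a 113-fold difference of the means, and B minus A was -1.23.

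The pair given for its fall with age had its 3 FS testes near the T1 level, which did not hold for all members with a large fall, CUST_18906_PI416070213 among them. CUST_6088_PI416070213, for the contig SeabassC-CL3976Contig1, had 14.40, 14.21 and 14.49 in FS1, FS2 and FS4, against 9.46 in FS3 and 10.07 in FS5. It had 9.25 to 9.77 in FF, with a median of 9.39, 8.99 to 10.34 in SF, with a median of 9.71, and 8.94 to 10.29 in SS, with a median of 9.44. At T1 it had 10.70 to 15.28 in F, with a median of 14.73, and 12.45 to 17.40 in S, with a median of 15.99. The 3 FS testes were within the range of the T1 gonads, and the T1 gonads did not overlap the FF, SF and SS testes. B minus A was -5.12, C minus B was 4.77, and C minus A was -0.35. The low T1 gonads were F1 at 11.34, F2 at 10.70, S1 at 12.45 and S4 at 13.09, and all others were at 14.60 or above.

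CUST_7134_PI416070213, for the contig SeabassC-CL468Contig1, had 11.76, 11.28 and 11.44 in FS1, FS2 and FS4, against 8.21 in FS3 and 8.43 in FS5. It had 7.73 to 8.77 in FF, with a median of 8.39, 7.79 to 8.96 in SF, with a median of 8.33, and 7.60 to 8.16 in SS, with a median of 7.89. At T1 it had 11.56 to 12.73 in F, with a median of 12.38, and 10.14 to 12.33 in S, with a median of 11.86. In this probe S5, S6 and S7 were the lowest of T1, at 10.14, 10.84 and 10.28. B minus A was -3.66, C minus B was 3.29 and C minus A was -0.37. The 3 FS testes were again inside the range of all T1 gonads, but FS2 and FS4 were below all F gonads. All 4 probes were well above background on all 35 arrays. Each of their targets had 2 other probes, whose C minus B spanned 7.91 to 7.92, 6.07 to 6.49, 4.43 to 4.67 and 3.11 to 3.22 for CUST_18906_PI416070213, CUST_4691_PI416070213, CUST_6088_PI416070213 and CUST_7134_PI416070213, in that order.

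**Figure D4:**
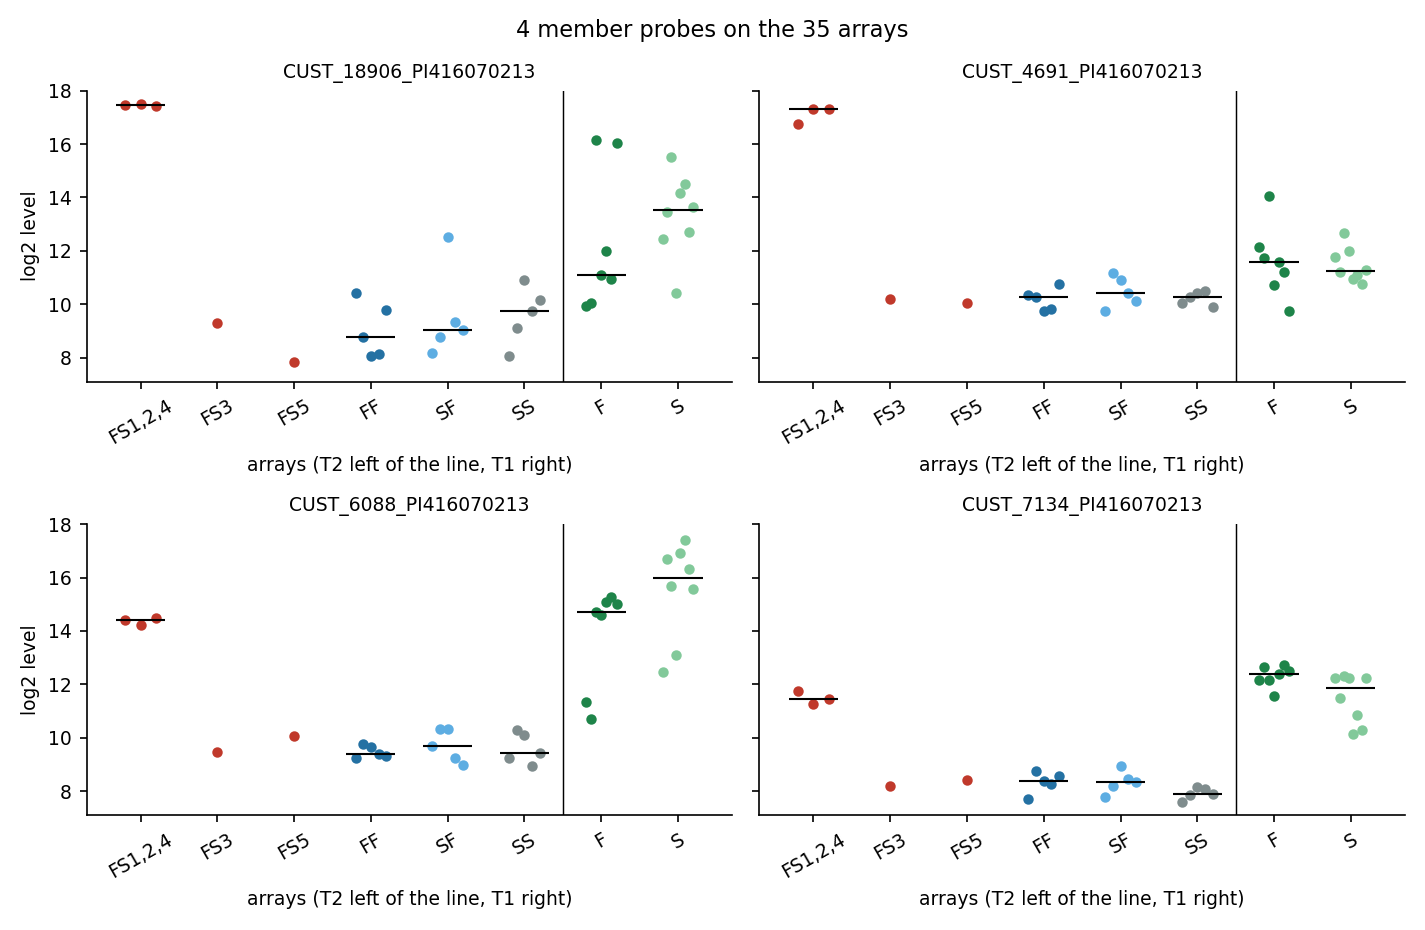
Log2 level of 4 member probes on the 35 arrays, 1 point per gonad, with black lines at the medians of sets of more than 1 array. In the upper 2 panels FS1, FS2 and FS4 (16.75 to 17.51) lie above all other gonads, and in the lower 2 they lie inside the range of the T1 groups F and S.

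The T1 gonads differed from each other in the members more than over all probes. The rule asked for a high mean at T1, which a few very high T1 gonads can give by themselves. A wide spread at T1 was thus favoured by the choice of members, and nothing is read from it. The SD over the 15 T1 arrays had a median of 0.55 in the members, against 0.33 over all probes, and it was above 1 in 25 members (15.2%), against 4.12% of all probes. In the 15 FF, SF and SS testes the median SD was 0.29 in the members and 0.25 over all probes, and only 3 members had an SD above 1. Among the 15 T1 gonads, S5 was the highest for 33 members (20%, against 11.3% of all probes), F3 for 20 (12.1%, against 6.72%), S7 for 19 (11.5%, against 6.11%) and F7 for 17 (10.3%, against 6.97%). F1 was the lowest for 28 (17.0%, against 4.54%), S5 for 25 (15.2%, against 11.5%), S6 for 21 (12.7%, against 13.8%) and F7 for 19 (11.5%, against 10.8%). S5 was thus often at either end of the T1 gonads, both in the members and over all probes. The shares of S6 and F7 as the lowest were near those of all probes.

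F3 stood out in the members that rose most in the 3 FS testes. In the 16 members with C minus B of at least 4, F3 was the highest T1 gonad for 13 (81.2%), whereas it was so for 6.72% of all probes. Relative to B, the median of these 16 members was 4.99, 5.25 and 5.35 in FS1, FS2 and FS4. At T1 it was 3.36 in F3, 2.37 in S3 and 1.82 in S1, and between 0.58 and 1.48 in each of the other T1 gonads. F3 exceeded the mean of the other 14 T1 gonads by a median of 1.58, with a range of 0.01 to 4.06. The same held for the other probes of these 16 targets, with F3 highest of T1 in 24 of 28. It was not particular to the members, since 45 probes of 20 other targets also had a C minus B of at least 4 and F3 was the highest T1 gonad for 43 of them. Without F3, 15 of the 16 members still met the limit on B minus A. In the 41 members with C minus B between 2 and 4, F3 was the highest of T1 for 5 and F7 for 8, and in the 108 with less it was F3 for 2 and S5 for 27. These bands were looked at after the values had been seen and have no test. F3 had 49.8% of its spots well above background, with only F6 lower among all arrays, at 43.2%.

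The next comparisons are of groups whose difference the rule did not use. F vs. S compares the extremes of early growth before diets changed. The paper reports that the groups derived from F later held a larger share of females than those derived from S. Early growth and future sex therefore cannot be told apart in F vs. S. No member was called different at a fold change of 1.5 and an adjusted p under 0.01 by limma, nor was any of the 24200 probes (0%), and the 1 fit of all 6 groups also called 0 members, against 0.388% of all probes. The smallest adjusted p of a member by limma was 0.04999. At an unadjusted p under 0.05, 18 members were higher in F (10.9%, against 11.3% of all probes) and 25 lower (15.2%, against 9.1%). By size alone, 13 members (7.88%) were at least 1.5-fold higher in F and 31 (18.8%) at least 1.5-fold lower, against 3.27% and 4.93% of all probes. The rule favoured a wide spread at T1, which can raise both shares, so nothing is read from them. The median difference of the members, F minus S, was -0.09 on the log2 scale, against 0.03 over all probes. Leaving out S3 gave -0.034, F4 -0.044, F5 -0.060 and F6 -0.061.

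Part of the S group differed from the rest of T1 in scan day. S5 to S8 were on a slide scanned with most T2 arrays on the first day, and F1 to F7 and S1 to S4 were scanned on the second day. Against S5 to S8, 53 members were at least 1.5-fold lower in F and 39 at least 1.5-fold higher, while against S1 to S4 these counts were 14 and 5. Over all probes the shares were 11.6% and 11.6% against S5 to S8, and 2.17% and 1.43% against S1 to S4. The differences were thus more numerous against the S arrays of the other scan day, for the members and for all probes, and the part of scan day or slide in them was not tested. With slide as a block, which compares F with S1 on their shared slide, the median turned to 0.08.

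**Figure D5:**
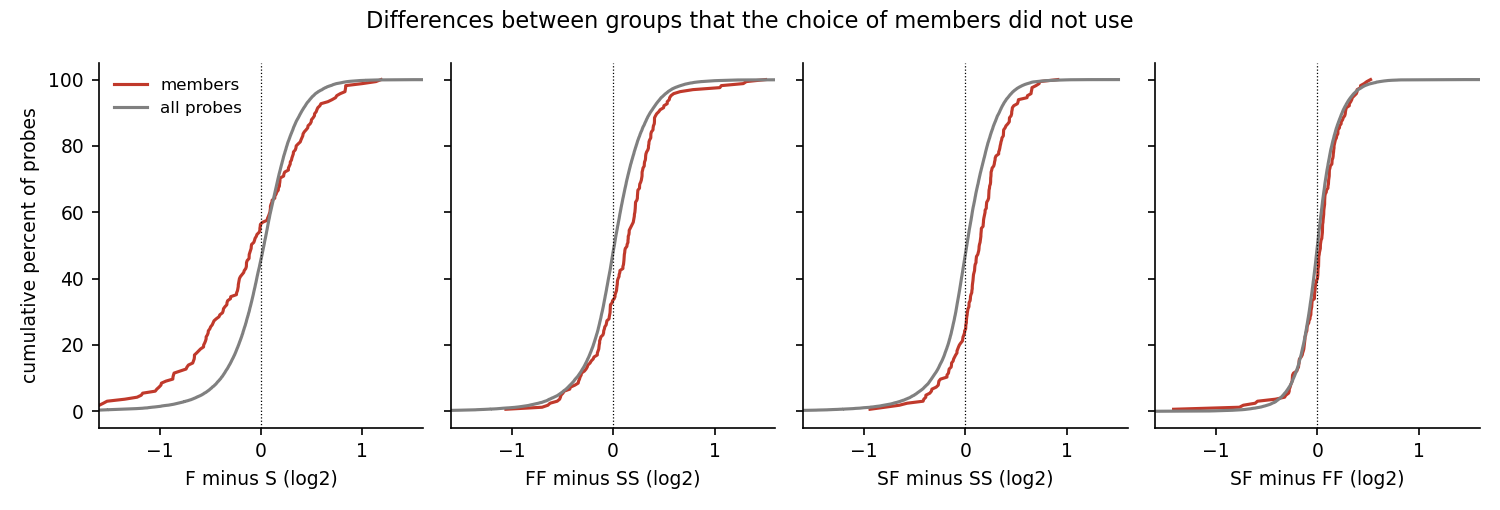
Cumulative distributions of the log2 differences F minus S, FF minus SS, SF minus SS and SF minus FF, with the 165 members in red and all probes in grey. The red line lies to the right of the grey one for FF minus SS and SF minus SS, where the medians of the members are both 0.14, is wider than the grey one for F minus S, and follows it closely for SF minus FF. The rule favoured a wide spread at T1, so nothing is read from the width for F minus S.

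FF vs. SS set sustained fast against sustained slow growth. No slide held both FF and SS testes, so slide and group cannot be told apart in this comparison. Of the members, 110 (66.7%, against 51.9% of all probes) were higher in FF and 55 lower, with a median difference of 0.14, against 0.01 over all probes, and of 0.090 without FF4. One member (0.606%) was called, against 0.0992% of all probes, and the fit of all 6 groups called 0 members, against 0.479% of all probes. At an unadjusted p under 0.05, 29 members were higher in FF (17.6%, against 11.1% of all probes) and 6 lower (3.64%, against 7.75%). The called member, singled out after its values were seen, was CUST_6873_PI416070213, for the contig SeabassC-CL4524Contig1. Its level was 12.73, 12.52, 12.64, 13.14 and 13.05 in FF1 to FF5, against 11.82, 11.56, 11.85, 11.80 and 11.80 in SS1 to SS5. The groups did not overlap, and the difference was 1.05 ± 0.13 on the log2 scale (SE, n = 5 each, limma, adjusted p = 0.00968). In the fit of all 6 groups the adjusted p by limma was 0.0102, so the call was lost, and the other 2 probes of the target had smaller differences of 0.56 and 0.39. In the other T2 testes CUST_6873_PI416070213 had 13.64, 14.05 and 13.70 in FS1, FS2 and FS4, 12.51 in FS3, 12.35 in FS5, and 12.08 to 13.00 in SF. At T1 it had 12.77 to 13.57 in F and 12.52 to 12.95 in S. The SS testes were thus below all other gonads in this probe.

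SF vs. SS set abundant against restricted food from T1 on, in fish that had grown slowly before. No member and no other probe (0%) was called by limma, and the fit of all 6 groups called 0 members, against 0.264% of all probes. Of the members, 125 (75.8%, against 52.8% of all probes) were higher in SF and 40 lower, with a median difference of 0.14, against 0.01 over all probes. On the slide that held both SF and SS testes, with only SF4, SF5, SS1 and SS2, this median was 0.25. With slide as a fixed block the contrast rests on these same arrays, so its 0.25 is the same estimate. SS1 and SS2 had the lowest medians of the members among the SS arrays, at -0.17 and -0.15 relative to B. At an unadjusted p under 0.05, 30 members were higher in SF (18.2%, against 9.64% of all probes) and 2 lower (1.21%, against 8.13%). All SF testes lay above all SS testes in 6 members (3.64%, against 1.89% of all probes), and below them in 0 (0%, against 2.19%). FF vs. SS and SF vs. SS share the SS arrays, so their direction is not independent. The members were measured together on the same arrays, so their counts in both comparisons are not counts of independent cases. The array medians of the members relative to B overlapped in both. They spanned -0.08 to 0.16 in FF, -0.10 to 0.17 in SF and -0.17 to -0.01 in SS. The SE of a single member's difference had a median of 0.17 for FF vs. SS and 0.15 for SF vs. SS.

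Technical values also moved with the SS group. The control RNA added to each sample before labelling gave a log2 level, relative to the 75th percentile of its array, of 3.08 to 5.56 on the SS arrays and -2.58 to 2.82 on all others. The position of the spots also differed, for 68.3% of the spots of the members lay in the lower 266 rows of the array, where all spots together are split evenly, and the share was 47.7% for the other probes of the same targets. Over all probes with both spots in the lower rows, the median of FF minus SS was 0.11 and of SF minus SS 0.07, while with both spots in the upper rows it was -0.08 and -0.04. Among the members with both spots in the lower rows (66) these medians were 0.20 and 0.17, and with both in the upper rows (13) 0.11 and 0.20. With the median of all probes of each target in place of the chosen probe, the median of the members was 0.05 for FF minus SS and 0.10 for SF minus SS. The part of these values in the differences was not tested.

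SF vs. FF compared fast later growth after slow and after fast early growth. Here too no slide held both groups, so slide and early growth cannot be told apart. Limma called 0 members and 0 probes (0%), both in the fit of this pair and in that of the 6 groups. At an unadjusted p under 0.05, 4 members were higher in SF (2.42%, against 3.06% of all probes) and 5 lower (3.03%, against 2.74%), with a median difference of 0.03, against 0.00 over all probes. Without FF1 this median was -0.0049, without FF3 -0.0041, without SF3 0.00096, without SF4 0.015 and without SF2 0.018, while it was 0.073 without SF1, 0.060 without FF2 and 0.057 without FF4, so it had no stable sign. In simulated arrays with the measured spread, 3-fold changes were recovered in 87.5% of cases for F vs. S and in 81.5% for FF vs. SS. For SF vs. SS and for SF vs. FF the share was 84%. The changed probes were drawn at random from all probes, so these shares test the fits. They do not give the chance of a call for the members or for smaller differences.

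For the FS group as a whole, with FS3 and FS5 included, the median difference of the members was 0.95 against FF, 0.98 against SF and 1.06 against SS. Fits of these pairs by limma called 0 members and 0 probes in each comparison, although 129, 119 and 134 members were higher in FS at an unadjusted p under 0.05 in the comparisons with FF, SF and SS (78.2%, 72.1% and 81.2%, against 12.5%, 12.5% and 15.6% of all probes). With the 6 groups fitted at once, 39, 34 and 72 members were called, against 4.9%, 4.74% and 9.31% of all probes. The rule used these contrasts, and nothing is read from the counts. At the same limits the paper reports differentially expressed genes for FS against FF, SF and SS. It does so too for F vs. S and SF vs. SS. The paper used median intensities per gene and does not name the samples in each fit. The fit of each pair alone was a choice made here. FS1 to FS4 shared a slide with no other group, so the slide of these 4 arrays and the FS diet cannot be told apart. The median of the members relative to B was 0.00 in FS3, on that slide, and 0.09 in FS5, with the same diet on another slide. FS3 and FS5 had been set apart by a measured outcome, so nothing is read from these medians about slide or diet.

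The other probes of the member targets were passed over by the rule. Of 274 such probes on 137 targets, 189 on 107 targets met both limits themselves. Their median C minus B was 1.2998 and their median B minus A -0.79. In 266 of the 274 C minus B was above 0 and B minus A below 0, against 22.6% of all probes. The 189 were passed over only for a smaller C minus B than another probe of their target. The count of 266 thus follows in large part from the rule, and nothing is read from it. The other probes measured the same RNA on the same arrays, so they bear on the probe and not on the fish. In the 138 members with 2 spots, the spots of an array differed by a median of 0.19, against 0.17 over all probes. In the 59 with a spot in both the lower and the upper rows, C minus B was at least 1 for all 59 lower spots and for 54 upper spots, with medians of 1.83 and 1.70. The rule used a probe value to which both spots contribute. The counts thus follow in large part from the rule, and nothing is read from them.

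The members also differed from the array in the kind of target sequence. Contigs assembled from several reads made up 86 of the 165 (52.1%), against 28.2% of all targets, and single sequence reads the other 79. Among the single reads, 16 members (20.3%) had names that start with the code cDN22, against 3.88% of all single reads on the array, and 2 (2.53%) had cDN26, against 11.4%. What these codes stand for is not given in the sources used here. The members were also brighter than all probes, and a target could enter by any of its probes. The part of level or number of probes in these shares was not tested.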

How the data were processed

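Whole gonads of 35 fish were each hybridised to a custom 1-colour Agilent array. The files deposited by the authors are 1 table of scanner output per array, with the intensity of spots and of their local background on a linear scale, and a matrix of log2 levels, made by normexp correction followed by quantile normalization according to their methods. The submitters' processing notes name Agilent Feature Extraction and limma. The matrix served to choose the members. All other values were computed from the median spot intensities: normexp with an offset of 50, quantile normalization over all arrays of the 43803 spots that carry sea bass sequence, log2, and then the median over the spots of a probe that bore no fault mark (2763 spots bore one). Of the matrix values, 98.3% lay within 0.1 of these. A reliability limit (foreground at least 2 times background in 50% of spots and arrays) removed 0 probes.

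Groups followed the sample labels. Pairs of groups were compared over 24200 probes in limma 3.58.1 by lmFit and eBayes, under R 4.3.3 with the package data.table (version 1.17.8). A call needed a fold change of 1.5 and an adjusted p (Benjamini-Hochberg) below 0.01. On simulated data, 200 of 24035 probes were changed 3-fold to test the fits. The members and lists were chosen with earlier results of these data known, so no test was made of the members as a list. Probes given by identifier were the 2 members with the largest C minus B and the 2 others with the most negative B minus A. No probe or target name was found among the 30274 genes of the RefSeq table, so the gene lists and markers that had been set could not be used. No 2 arrays held identical values, with a highest correlation of 0.989. Arrays have no counting depth: the median spot intensity was 178 to 752 at T2 and 112.5 to 285 at T1, and the number of arrays limits the precision. Alternatives were other background corrections, the processed signal, the matrix, other normalizations, a filter on dim probes, 1 fit of all 6 groups, array weights, slide, scan day or replicate number as a block, the median of all probes of a target, and each array left out in turn. Plots were drawn with matplotlib 3.10.9 (Python 3.11.15).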

Additional observations from a re-analysis of the deposited data

Results flagged for a closer look

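In CUST_18906_PI416070213, the probe with the largest C minus B, the testis SF3 was set apart from the other 4 SF testes, with 12.51 against a next highest value of 9.32 in SF4. The gap took 73.8% of the range of the group. Among the medians of the members and the 4 probes given by identifier, each looked at in 6 groups, this was the only such sample. Chance sets apart about 1 in 20 groups, so with this many looks such a sample can be expected, and nothing is read from it.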

How the results depend on the processing

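No member was called in F vs. S, SF vs. SS or SF vs. FF under any alternative. In FF vs. SS the 1 call depended on the setting. It was 0 with normexp on the foreground alone, the processed signal, the filter on dim probes, 1 fit of all 6 groups, slide as a random block, the replicate number as a block, the median of all probes of a target, and arrays of the first scan day. It was 2 with the authors' matrix, T1 and T2 normalized separately, control spots kept, and array weights. With 1 array left out it was 0 to 1, with 0 for every array but SS1. The median of the members moved in F vs. S to 0.078 with slide as a fixed block (-0.12 to -0.03 with 1 array left out), and in FF vs. SS to 0.049 with the median of all probes of a target. In SF vs. SS it moved to 0.25 on the slide that held both groups. Slide as a fixed block gave the same 0.25 from the same arrays, SF4, SF5, SS1 and SS2. The median C minus B was 1.82 with a normexp offset of 0, 1.81 with the foreground alone, 2.44 with the processed signal and 1.67 with T1 and T2 normalized separately, and 1.502 to 1.61 with 1 of the 3 FS arrays left out. With the processed signal the median C minus B of all probes was -0.41, so that relative to it the members were at 2.85. The median B minus A was -1.03 with an offset of 0, -1.30 with the processed signal and -0.0057 with T1 and T2 normalized separately, where the median of all probes moved to 0.66, so that relative to it the members were at -0.67. With 1 array left out it was -0.93 to -0.86. The rule gave 162 members from the scanner output (162 shared), 130 from the median of all probes of a target, and 159 to 176 with 1 array left out, of which 156 to 165 were shared. The cause of these shifts was not tested.

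The replicate numbers of the titles were not taken to pair the arrays. Correlations of deviations between arrays of the same number spanned -0.21 to 0.39 in F vs. S and -0.10 to 0.61 in FF vs. SS. They spanned -0.24 to 0.69 in SF vs. SS and 0.09 to 0.78 in SF vs. FF. The array of the same number was the closest for 1 of 7 arrays in F vs. S and 1 of 5 in FF vs. SS. It was so for 2 of 5 in SF vs. SS and in SF vs. FF. The replicate block called 0 members in each, which cannot show whether the arrays were paired. Slide as a fixed block, scan day, the slide that held both SF and SS, and the median of all probes of a target were chosen after seeing the data. The share of spots well above background, 67.2 to 87.8% at T2 against 43.2 to 74.4% at T1, limits what could be measured in the T1 gonads.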
